A study of Homo sapiens with 6 samples.

Results

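The enzymes described here are the 9 genes of thymidylate synthesis and of folate-bound one-carbon transfer TYMS, SHMT1, SHMT2, MTHFD1, MTHFD1L, MTHFD2, MTHFS, ALDH1L2 and FTCD. They were chosen by name, and every probe set annotated to one of them was taken, which gave 29 of 54613 probe sets. Of these, 23 named 1 gene and 6 named a further gene as well. The enzymes were split by compartment into 5 cytosolic genes (TYMS, SHMT1, MTHFD1, MTHFS and FTCD) and 4 mitochondrial genes (SHMT2, MTHFD1L, MTHFD2 and ALDH1L2).

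RNA came from HT29, an established line of human colon adenocarcinoma cells, and was hybridized to Affymetrix HG U133 PLUS 2.0 arrays, 1 per sample. One group was 3 samples of HT29 cells with resistance to MTX (methotrexate, an antifolate drug) at 10 μM, obtained by stepwise exposure to MTX and kept in -GHT medium, which lacks glycine, hypoxanthine and thymidine, with dialyzed serum. The other was 3 samples of MTX-sensitive HT29 cells kept with whole serum in Ham's F12 medium. Medium and resistance therefore differed together, and their parts in any difference cannot be told apart. Glycine and thymidylate are themselves products of these enzymes. No source used here says whether the resistant line was 1 clone or that the triplicates came from separate cultures, so p-values measure only how far these samples spread, and that spread may be technical.

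Folates carry single carbon units at several oxidation states. Serine hydroxymethyltransferase moves a carbon from serine to tetrahydrofolate and yields glycine, and thymidylate synthase spends that carbon to make dTMP for DNA. The steps that interconvert the carbon units are duplicated: cytosol and mitochondria each have their own enzymes, and formate made in mitochondria is passed to the cytosol for purine and thymidylate synthesis. MTX blocks the regeneration of tetrahydrofolate that thymidylate synthase uses up, and its polyglutamates also inhibit other folate enzymes.

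At the brightest probe sets, the clearest contrast between the compartments was that between MTHFD2 and MTHFD1. The DNA before the start of each is therefore shown, as 250 bases read 5′ to 3′ on the gene's strand (RefSeq, GRCh38.p14). Capitals mark the motifs CCAAT (the CCAAT box) and CACGTG (an E-box). The MTHFD2 stretch is chr2:74198365-74198614 on the plus strand, and the MTHFD1 stretch is chr14:64388103-64388352, also on the plus strand.
MTHFD2: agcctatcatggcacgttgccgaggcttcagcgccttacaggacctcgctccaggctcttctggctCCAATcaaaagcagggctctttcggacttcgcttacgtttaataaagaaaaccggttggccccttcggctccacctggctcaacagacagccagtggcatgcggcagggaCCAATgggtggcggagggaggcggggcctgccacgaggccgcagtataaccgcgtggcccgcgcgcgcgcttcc
MTHFD1: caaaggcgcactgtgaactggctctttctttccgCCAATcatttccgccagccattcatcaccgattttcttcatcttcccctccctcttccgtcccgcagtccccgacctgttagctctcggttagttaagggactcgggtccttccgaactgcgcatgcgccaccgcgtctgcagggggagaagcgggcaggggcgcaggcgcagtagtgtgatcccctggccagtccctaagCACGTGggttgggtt
The MTHFD2 stretch held CCAAT at -184 and at -74 from the start site, and the MTHFD1 stretch held CCAAT at -216 and CACGTG at -15.

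4 motifs were searched on both strands of 300 bases (250 before the start and 50 after it). They were CCAAT and, as an E-box, CACGTG, and besides these TGATGNAA (the core of the element that ATF4 binds, N being any base) and TTTNNCGC (an E2F element). Over 35116 promoters of this length, 34.6% held CCAAT, 7.26% CACGTG, 6.89% TTTNNCGC and 3.62% TGATGNAA. The table used here held a promoter for 7 of the 9 genes, and SHMT2 and ALDH1L2 were not among them. It held 4 promoters of MTHFD1L and 1 of each other gene, so MTHFD1L had more sequence to match than the shares count. Of the 7, MTHFD1L alone held TGATGNAA, at chr6:150866357-150866364 on the plus strand, and an E-box shortly before it at chr6:150866332-150866337, both shown in capitals within 30 bases. These 2 sites are given because MTHFD1L is the mitochondrial counterpart of the synthetase part of MTHFD1, which also has an E-box close to its start.
MTHFD1L, TGATGNAA: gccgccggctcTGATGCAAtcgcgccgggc
MTHFD1L, CACGTG: acgcccggctcCACGTGcgcagccggccgc
TTTNNCGC was found once, in the promoter of TYMS, on the reverse strand at -39. SHMT1 and MTHFD1L held CCAAT, and none of the 4 motifs was found for MTHFS or FTCD. The TGATGNAA of MTHFD1L was not in all 4 of its promoters, and in 1 of them it lay after the start site, at 24. These are matches of letters and were not tested against the signals.

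Each probe set's deposited value is a linear fluorescence intensity from MAS5. Division by the array median gave scaled signals, in which 1 stands for the median probe set. The array medians were 13.3 to 16.9 in resistant and 14.2 to 15.4 in sensitive cells. Where the scaled signal averaged 1 or more over the 6 arrays, log2 values were tested with limma (Benjamini-Hochberg adjustment over all 26833 of them), and called where the adjusted p was under 0.05. A probe set's signal depends on its own sequence, so signals were compared between groups and never between probe sets. Of the 29 probe sets 16 passed this filter, and ALDH1L2 was the gene with none. Colon epithelium markers checked the cells: 9 of 12 averaged above 1 in both groups, while CDX1 and CDX2 averaged under 1 in both. GPA33 averaged 0.404 in resistant and 1.41 in sensitive cells. Summed signals of the 12 were 1598 to 1798 in resistant and 2062 to 2274 in sensitive cells. Of the 9 tested, 6 were lower and 1 (CDH17) was higher, where 21.4% of all tested genes were lower and 11.9% higher. Of 5 leukocyte markers with a probe set, PTPRC and CD3E averaged under 1 in both groups, ITGAM was near 1 (1.18 in resistant and 1.00 in sensitive cells), and LYZ was bright in both (398 in resistant and 432 in sensitive cells). CD14 averaged 0.463 in resistant and 2.41 in sensitive cells with no overlap, and the leukocyte sums were 379 to 413 in resistant and 409 to 461 in sensitive cells. Of 5 endothelial markers, 4 averaged under 1 in both groups, with sums of 3.33 to 3.54 in resistant and 2.60 to 3.28 in sensitive cells. Of 7 fibroblast markers, COL1A1 alone averaged above 1 in resistant cells (11.8, against 0.740 in sensitive cells). LUM alone did in sensitive cells (0.127 in resistant and 1.63 in sensitive cells, with no overlap). The fibroblast sums were 12.8 to 16.9 in resistant and 5.50 to 6.04 in sensitive cells. For ACTB the 3' control probe set over the 5' one, a measure of RNA integrity, gave 1.17 to 1.30 in resistant and 1.12 to 1.17 in sensitive cells. For GAPDH it gave 0.980 to 1.04 in resistant and 1.00 to 1.01 in sensitive cells. The part of these differences in the results that follow was not tested. In bulk RNA, fewer cells that express a gene and less of its RNA per cell cannot be told apart.

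Among the tested probe sets of the 9 genes, none was called higher in resistant cells and 3 were called lower, all of them cytosolic: MTHFD1, the probe set shared by MTHFS and its readthrough, and 1 of the probe sets shared by SHMT1 and a miRNA gene. Over all tested probe sets 9.52% were called higher and 19.5% lower (29% in either direction), so 3 of 16 (18.8%) is close to the share of all probe sets that were lower. Counting only the 11 tested probe sets that name 1 gene, as the design set out, MTHFD1 alone was lower. The array groups did not overlap for 6 of the 16 (37.5%), against 42.3% of all tested probe sets. In 2 of these 6 (TYMS and MTHFD2) the resistant arrays lay above the sensitive ones, and in 4 they lay below. These counts depend on the scaling. After quantile normalization 5 of the 16 were higher and 2 lower, where 15.6% of all tested probe sets were higher and 16.1% lower. With only the tested probe sets used for the array median, 4 were higher and 2 lower (14.5% and 17.4% of all), and by the two-group test with unequal variances none was called (0.302% of all were higher and 0.507% lower). The share of all calls that were higher was 32.8% after median scaling and 49.1% after quantile normalization, and all tested probe sets had a median log2 fold change of -0.12 after median scaling and -0.02 after quantile normalization. The plot of signals by array shows the 16 probe sets.

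**Figure D1:**
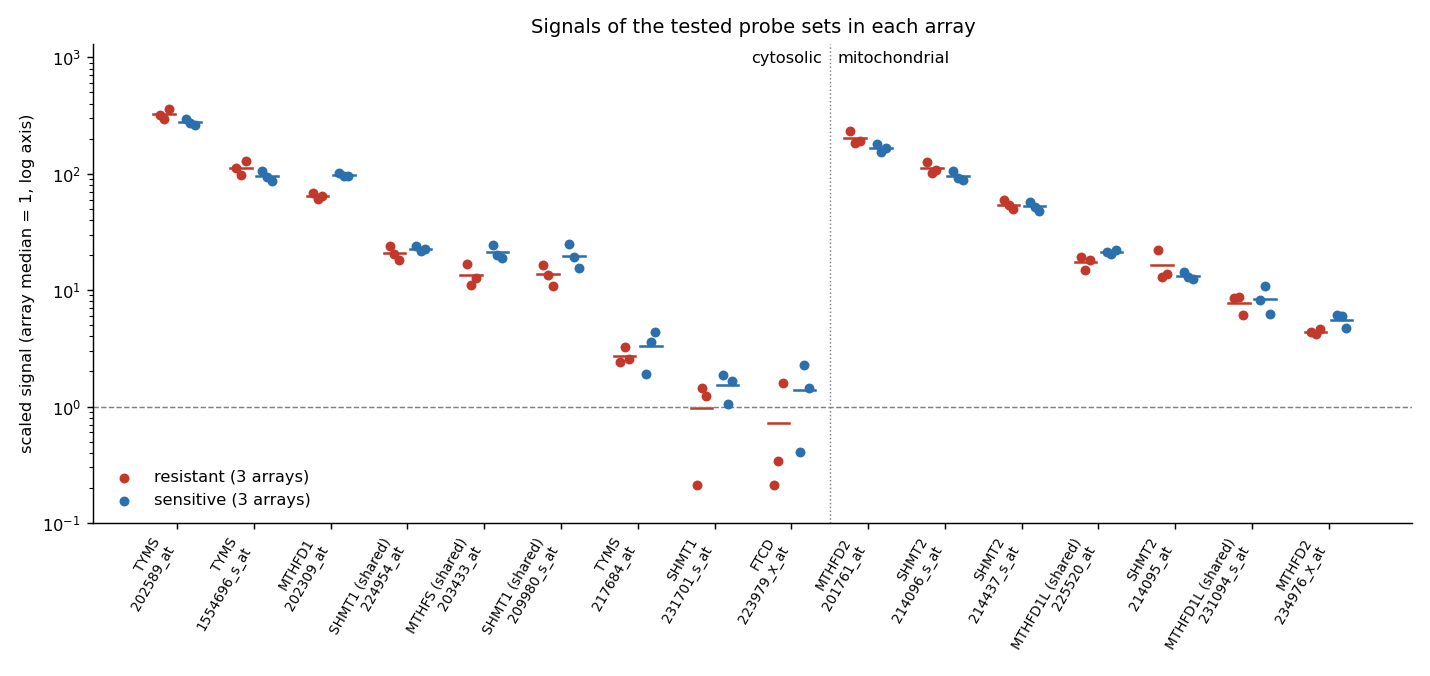
Scaled signal (array median = 1, log axis) of the 16 tested probe sets in each array, with 3 resistant arrays in red left of 3 sensitive arrays in blue and a bar at each group mean; cytosolic enzymes are left of the dotted line, and "shared" marks a probe set annotated to a further gene. At MTHFD1 the resistant arrays sit between 60.8 and 68.2, all below the sensitive arrays; heights of different probe sets cannot be compared.

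MTHFD1 had the firmest change at a single probe set. It encodes the cytosolic trifunctional enzyme that interconverts methylene-, methenyl- and formyl-tetrahydrofolate and joins formate to tetrahydrofolate. Its probe set 202309_at had scaled signals of 68.2, 60.8 and 64.4 in resistant cells, against 102, 96.2 and 96.1 in sensitive cells. Every resistant array was below every sensitive array, and the means were 64.5 ± 3.71 and 98 ± 3.16 (resistant and sensitive, SD, n = 3 each). The log2 fold change was -0.61 (standard error 0.12, 95% interval -0.85 to -0.36, limma adjusted p = 0.00045), a level of 0.657 of that in sensitive cells. Relative to the median of all tested probe sets it was -0.48, and after quantile normalization it was -0.43. A second probe set, 239846_at, was dim and was not tested. It ran the other way, at 0.598 to 0.850 in resistant and 0.0704 to 0.460 in sensitive cells, with no overlap. With both probe sets averaged on the log2 scale, MTHFD1 was at 0.54, the opposite sign.

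MTHFS, which returns the storage form 5-formyltetrahydrofolate to the active pool, is read by probe sets that are also annotated to the readthrough transcript ST20-MTHFS, so the signal cannot be assigned to one of them. The probe set 203433_at gave 16.6, 11 and 12.6 in resistant cells, against 24.4, 19.9 and 19.0 in sensitive cells, with no overlap. The log2 fold change was -0.66 (standard error 0.18, 95% interval -1.03 to -0.30, limma adjusted p = 0.0068). It lost the call without sensitive replicate 1, at -0.55 (adjusted p = 0.053), and its adjusted p was 0.059 in limma without a mean-variance trend. The other MTHFS probe set stayed at 0.475 to 0.662 in resistant and 0.494 to 0.866 in sensitive cells.

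SHMT1, the cytosolic serine hydroxymethyltransferase, gave different readings at its 4 probe sets. The brightest ones are annotated to SHMT1 and to the miRNA gene MIR6778. One of them, 209980_s_at, had 16.5, 13.5 and 10.9 in resistant cells, against 24.8, 19.1 and 15.5 in sensitive cells. Resistant replicate 1 was above sensitive replicate 3, so the groups overlapped, and the log2 fold change of -0.53 (standard error 0.19, limma adjusted p = 0.039) lost the call in 10 of 17 tests under other settings, including quantile normalization (-0.37, adjusted p = 0.11). It also lost the call without resistant replicate 2 (-0.53) or 3 (-0.38) and without sensitive replicate 1 (-0.36) or 2 (-0.54). The other, 224954_at, had 24.1, 20.4 and 18.0 in resistant cells, against 23.8, 21.8 and 22.6 in sensitive cells. Its log2 fold change was -0.14 (95% interval -0.46 to 0.19, adjusted p = 0.56), so this probe set gave no call in either direction, and the sign turned under quantile normalization (0.04). The probe sets that name SHMT1 alone were close to or under the array median. Of these 231701_s_at averaged 0.966 ± 0.663 in resistant and 1.53 ± 0.429 in sensitive cells (SD, n = 3 each). Its log2 fold change was -1.04 (limma adjusted p = 0.22). The dimmer 217304_at was not tested, and averaged 0.702 in resistant and 0.583 in sensitive cells, with overlap. The mean of 231701_s_at was above 1 in sensitive cells alone, so the filter itself favoured a negative sign.

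TYMS, thymidylate synthase, makes dTMP and is itself a target of antifolates. At 202589_at its scaled signals were 316, 297 and 358 in resistant cells, against 296, 271 and 262 in sensitive cells. The groups did not overlap, but resistant replicate 2 exceeded sensitive replicate 1 only narrowly. The log2 fold change was 0.23 (standard error 0.09, 95% interval 0.04 to 0.42, limma adjusted p = 0.069), which is 1.17-fold and was not called. A second probe set, 1554696_s_at, had 111, 97.3 and 128 in resistant cells and 105, 92.9 and 86.3 in sensitive cells, with a log2 fold change of 0.24 (adjusted p = 0.15). The third, 217684_at, was dim and spread widely, at 2.39 to 3.26 in resistant and 1.90 to 4.39 in sensitive cells (-0.19, adjusted p = 0.64). After quantile normalization both bright probe sets were called higher, at 0.26 (adjusted p = 0.0093) and 0.42 (adjusted p = 0.0036). The lncRNA gene TYMSOS on the other strand at TYMS had 3.29, 3.05 and 3.38 in resistant cells, against 3.34, 3.37 and 3.12 in sensitive cells (-0.02, 95% interval -0.46 to 0.42, adjusted p = 0.96). ENOSF1, which overlaps TYMS on the opposite strand, was not analysed here.

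FTCD links histidine breakdown to the folate pool and is known from liver. Of its 6 probe sets only 223979_x_at passed the filter, with 0.211, 0.344 and 1.6 in resistant cells, against 0.408, 2.28 and 1.45 in sensitive cells. The groups overlapped and the log2 fold change of -1.18 had a standard error of 0.82 (adjusted p = 0.30), so no difference was detectable at this signal. Here too the mean was above 1 in sensitive cells alone, and the filter favoured a negative sign. The other 5 lay between 0.189 and 2.01 in resistant and between 0.130 and 1.02 in sensitive cells. Their means, resistant over sensitive, had ratios of 2.20, 1.68, 1.94, 0.831 and 1.24, so most ran the other way, all with overlap. Of these 233741_at missed the filter narrowly, at a mean of 0.997.

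The mitochondrial enzymes gave no call after median scaling. MTHFD2, the mitochondrial dehydrogenase and cyclohydrolase that is known to be high in embryonic and tumour cells and low in most adult tissue, had 231, 183 and 191 at 201761_at in resistant cells, against 180, 152 and 165 in sensitive cells. The groups did not overlap, with resistant replicate 2 just above sensitive replicate 1. The log2 fold change was 0.28 (standard error 0.11, 95% interval 0.05 to 0.50, limma adjusted p = 0.058), and after quantile normalization it was 0.37 (adjusted p = 0.00064). The dim probe set 234976_x_at ran the other way, at 4.39, 4.21 and 4.59 in resistant cells against 6.08, 5.94 and 4.75 in sensitive cells (-0.34, 95% interval -0.73 to 0.06, adjusted p = 0.19).

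SHMT2 supplies most of the one-carbon units of mitochondria from serine. Its brightest probe set, 214096_s_at, had 126, 102 and 108 in resistant cells, against 105, 91.4 and 87.8 in sensitive cells, with overlap. The log2 fold change was 0.24 (standard error 0.12, limma adjusted p = 0.13), and 0.42 after quantile normalization (adjusted p = 0.00048). At 214437_s_at it was 0.04 (95% interval -0.23 to 0.32, adjusted p = 0.84) and at 214095_at 0.25 (adjusted p = 0.35), where resistant replicate 1 had 22.2 and the other two 12.9 and 13.7. All 3 SHMT2 probe sets therefore had positive log2 fold changes, and none was called.

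MTHFD1L is the mitochondrial synthetase that releases formate. Its bright probe sets are also annotated to the pseudogenes LOC101928195 and LOC100996643, near copies that could share the signal. The probe set 225520_at had 19.4, 14.9 and 18.1 in resistant cells, against 21.4, 20.6 and 22.3 in sensitive cells, and the groups did not overlap. The log2 fold change was -0.30 (standard error 0.16, 95% interval -0.63 to 0.03, limma adjusted p = 0.16). At 231094_s_at it was -0.09 (adjusted p = 0.78). Without resistant replicate 1 the change at 225520_at was -0.38 and was called (adjusted p = 0.049), without resistant replicate 2 it was -0.19 (adjusted p = 0.38), and it was called in 1 of 17 tests under other settings. The probe sets that name MTHFD1L alone lay at 0.0301 to 0.575 in resistant and 0.0493 to 0.680 in sensitive cells.

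ALDH1L2, the mitochondrial formyltetrahydrofolate dehydrogenase, was under the array median at all 3 probe sets and in every array, at 0.0947 to 0.731 in resistant and 0.0260 to 0.753 in sensitive cells. No detection calls were used here, so these signals set no firm level.

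**Figure D2:**
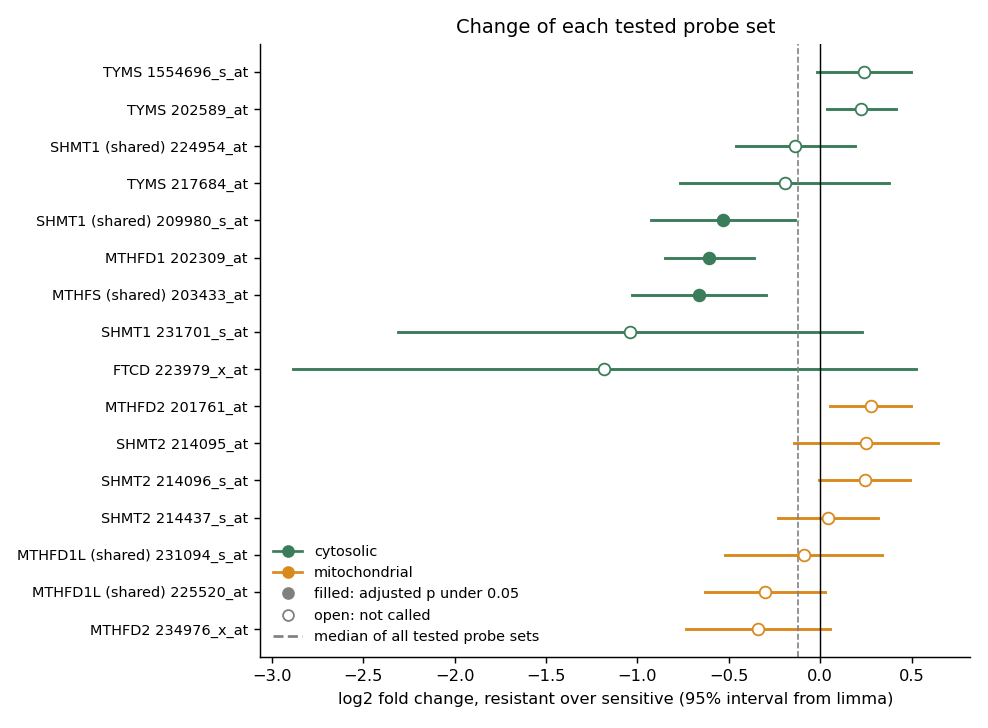
Log2 fold change, resistant over sensitive, of the 16 tested probe sets with the 95% interval from limma; cytosolic enzymes in green above mitochondrial ones in orange, and filled points have an adjusted p under 0.05. The 3 filled points are cytosolic and lie left of the dashed line at -0.12, the median of all tested probe sets.

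Each gene was then read from its brightest probe set. From probe sets of 1 gene, as the design set out, the 4 cytosolic genes tested had a median log2 fold change of -0.82 and the 2 mitochondrial genes 0.26, beside -0.10 over all tested genes. With shared probe sets included, the median was -0.61 over 5 cytosolic genes (-1.18 for FTCD to 0.23 for TYMS) and 0.24 over 3 mitochondrial genes (-0.30 for MTHFD1L to 0.28 for MTHFD2). Both cytosolic medians count FTCD, and the first also SHMT1 at 231701_s_at, whose signs the filter favoured. With the filter raised to a mean of 2, which removes these, the cytosolic median was -0.19 over MTHFD1 and TYMS, and -0.37 over 4 genes with shared probe sets, while the mitochondrial medians were the same 0.26 and 0.24. The 2 compartments overlapped, since TYMS lay among the mitochondrial genes and MTHFD1L nearer the cytosolic ones. Of the 8 genes with a tested probe set none was called higher and 2 were called lower (MTHFD1 and MTHFS), where 11.9% of all tested genes were higher and 21.4% lower.

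Array scaling cancels in a ratio of 2 probe sets within 1 array, so the paralogue pairs were compared in that way. MTHFD2 over MTHFD1, as a log2 ratio set to a mean of 0 in the sensitive arrays, was 1.00, 0.83 and 0.81 in resistant cells, against 0.07, -0.09 and 0.02 in sensitive cells. The groups did not overlap, and the means differed by 0.88 on the log2 scale (1.84-fold, resistant over sensitive; SD 0.10 in resistant and 0.08 in sensitive arrays). The exact permutation test gave p = 0.1, two-sided, the smallest that 3 against 3 arrays allow, and 0.3 adjusted over the 3 pairs. Here MTHFD2 and MTHFD1 were each read from the brightest probe set, and the dimmer one of each ran the other way. With the probe sets of each gene averaged, MTHFD2 over MTHFD1 differed by -0.58 (exact permutation p = 0.3). SHMT2 over SHMT1, with the shared SHMT1 probe set 224954_at, was 0.33, 0.27 and 0.54 in resistant cells, against 0.09, 0.01 and -0.10 in sensitive cells, a difference of 0.38 with no overlap (exact permutation p = 0.1). MTHFD1L over MTHFD1, with the shared probe set 225520_at, was 0.38, 0.16 and 0.37 in resistant cells, against -0.05, -0.03 and 0.08 in sensitive cells, a difference of 0.30 with no overlap (exact permutation p = 0.1). With shared probe sets, a reading added after seeing the data, each resistant array was above each sensitive array in all 3 pairs. How often other ratios separate the groups was not computed, and 42.3% of all tested probe sets did so singly. However, 2 pairs share MTHFD1, whose own groups did not overlap, and a ratio shows unequal change without showing which enzyme moved. With probe sets of 1 gene, as the design set out, SHMT2 over SHMT1 differed by 1.28 (exact permutation p = 0.2) and MTHFD1L over MTHFD1 by 0.12 (p = 0.9, exact permutation test). The groups overlapped in both of these. Both rest on probe sets close to or under the array median, and the filter favoured the sign of that for SHMT1. Without resistant replicate 1 SHMT2 over SHMT1 differed by 0.31 and MTHFD1L over MTHFD1 by 1.35.

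**Figure D3:**
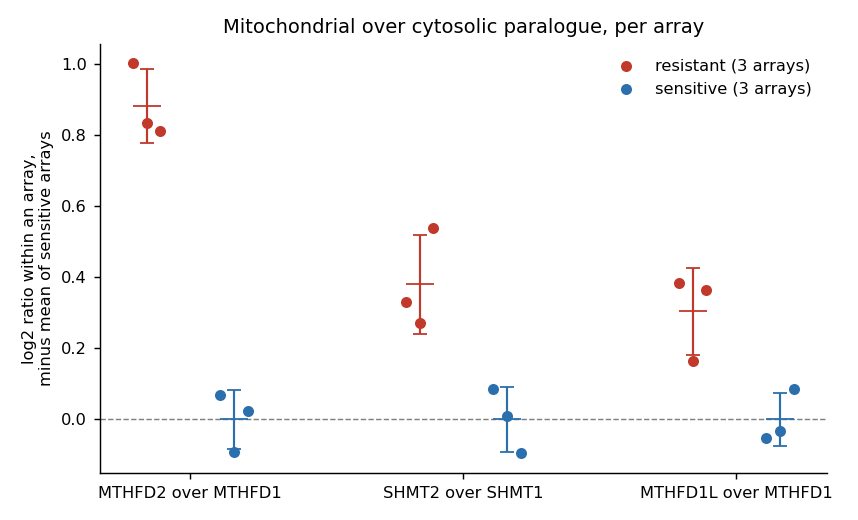
Log2 ratio of a mitochondrial enzyme over its cytosolic paralogue within each array, minus the mean of the sensitive arrays, for 3 resistant arrays (red, left) and 3 sensitive arrays (blue, right) of each pair, with the mean and SD. Each gene is read from its brightest probe set. Shared probe sets are included, a reading added after seeing the data. MTHFD2 over MTHFD1 lies between 0.81 and 1.00 in the resistant arrays and within 0.10 of 0 in the sensitive arrays.

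Other genes of dTMP supply and of S phase had lower log2 fold changes than TYMS at its brightest probe set. Of 9 tested genes of dTMP and dUTP metabolism none was higher in resistant cells and 6 were lower (median -0.44). Over all tested genes 11.9% were higher and 21.4% lower (median -0.10). RRM2, the small subunit of ribonucleotide reductase, had 161, 142 and 182 in resistant cells, against 264, 260 and 274 in sensitive cells (-0.72, standard error 0.10, limma adjusted p = 1.2e-05). Deoxycytidylate deaminase DCTD, which makes the dUMP that TYMS uses, was at -0.57, the uracil glycosylase UNG at -0.56 and the large subunit RRM1 at -0.51. Of 20 E2F and S phase genes none was higher and 10 were lower (median -0.38), or 6 lower without resistant replicate 2 or without sensitive replicate 2. The lowest were CCNE2, a cyclin of S phase entry, at -1.43 and GINS1, a replication fork protein, at -1.35, followed by the helicase subunit MCM4 at -0.67 and the DNA polymerase subunit POLA1 at -0.64. None of these 9 and 20 genes had a log2 fold change above that of TYMS. The difference between TYMS and these lists was not tested.

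The folate carriers SLC19A1 and SLC25A32 were lower in resistant cells. Of 6 tested genes of folate uptake, storage and mitochondrial import, 1 was higher and 3 were lower (median -0.30). Among all tested genes 11.9% were higher and 21.4% lower. SLC19A1, the reduced folate carrier that also takes up MTX, had 1.14, 1.18 and 0.698 in resistant cells, against 17.1, 19.96 and 15.3 in sensitive cells (-4.15, standard error 0.22, limma adjusted p = 4.3e-12). SLC25A32, which carries folate into mitochondria, had 43.7, 30.3 and 43.2 in resistant cells, against 85.8, 75.6 and 72.4 in sensitive cells (-1.01, adjusted p = 1.9e-05). The folate receptor FOLR1 was at -0.44 (adjusted p = 0.048). The lower count was 2 after quantile normalization, with no further scaling and with only the tested probe sets used for the array median, and the higher count was 0 without sensitive replicate 2 and 2 without resistant replicate 1. SLC46A1, a proton-coupled folate carrier named here after its values were seen, averaged 3.86 in resistant and 2.71 in sensitive cells with no overlap (0.50, adjusted p = 0.086). GGH, which trims folate polyglutamates, was called higher at 0.52 (adjusted p = 0.015). Of 8 other folate-dependent enzymes none was higher and 4 were lower (median -0.31): GART at -0.60 and ATIC at -0.46, the transformylases of purine synthesis, MTFMT, which formylates the mitochondrial initiator tRNA, at -0.59, and MTHFD2L, the paralogue of MTHFD2, at -0.55. Without resistant replicate 2 or without sensitive replicate 1 the lower count was 2. ALDH1L1, the cytosolic counterpart of ALDH1L2, was also picked after its values were seen: it averaged 2.25 in resistant and 1.34 in sensitive cells with no overlap (0.74, adjusted p = 0.075). MTHFD2L had 19.1, 13.2 and 15.8 in resistant cells, against 23.1, 19.5 and 27.9 in sensitive cells (adjusted p = 0.021). The brighter MTHFD2 probe set had the opposite sign (0.28, not called) and the dim one the same sign (-0.34, not called).

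Of 7 tested genes that supply serine and glycine, 2 were higher and 1 was lower (median 0.14), or 1 higher with any one sensitive array left out. For this list and the next 2, the shares over all tested genes were 11.9% higher and 21.4% lower. PSPH, the last enzyme of serine synthesis, had 56.2, 36.6 and 42.1 in resistant cells, against 28.3, 27.1 and 25.3 in sensitive cells (0.72, standard error 0.16, limma adjusted p = 0.0015). The serine carrier SLC1A4 was at 0.50 (adjusted p = 0.026) and the glutamine carrier SLC38A1 at -0.50 (adjusted p = 0.0027). ATF4 is a stress-response factor known to act on SHMT2, MTHFD2 and serine synthesis genes. Of 19 tested ATF4 targets outside one-carbon metabolism, 6 were higher and 6 lower (median -0.18). The list holds ATF4 itself, one of the 6, with 203, 189 and 185 in resistant cells, against 166, 140 and 148 in sensitive cells (0.35, adjusted p = 0.013). Without sensitive replicate 2 the higher count was 2, and without sensitive replicate 1 the lower count was 3. The largest changes were those of CTH, which makes cysteine, at 1.14, the stress factors ATF3 at -1.95 and ATF5 at -1.16, and the lipoprotein receptor VLDLR at -0.99. Of 8 genes of the mitochondrial matrix, taken as a comparison for the mitochondrial enzymes, none was higher and 2 were lower (median -0.16), the aspartate aminotransferase GOT2 at -0.89 and the chaperonin HSPE1 at -0.41. After quantile normalization the higher and lower counts were 4 and 1 for serine and glycine supply, 7 and 5 for ATF4 targets, 2 and 3 for the other folate enzymes, 0 and 5 for dTMP and dUTP metabolism, 1 and 2 for the mitochondrial matrix and 1 and 8 for S phase genes. Of all tested probe sets 15.6% were higher and 16.1% lower at that setting. These counts are of genes, and the shares over all genes were not computed there. In limma without a trend 7.99% of all genes were higher and 12.9% lower. There 4 S phase genes, 2 of dTMP and dUTP metabolism, 2 of folate uptake, 1 other folate enzyme and 1 matrix gene were lower. Higher were 2 genes of serine and glycine supply and 1 other folate enzyme, and 2 ATF4 targets were higher and 4 lower.

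**Figure D4:**
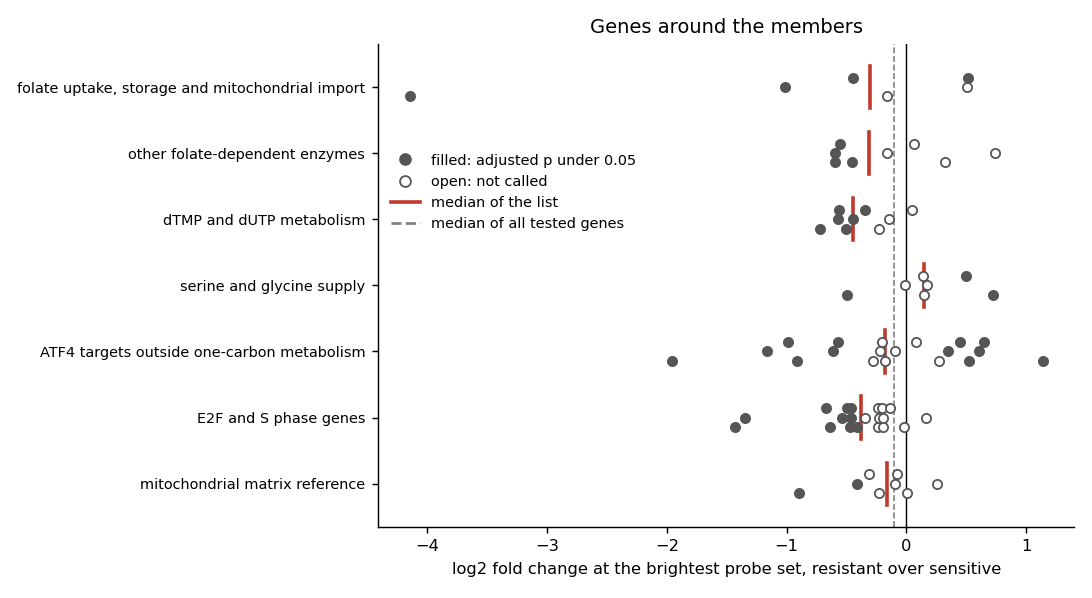
Log2 fold change, resistant over sensitive, of every tested gene of 7 lists at its brightest probe set; filled points have an adjusted p under 0.05, red bars are list medians and the dashed line is the median of all tested genes, -0.10. The medians run between -0.44 for dTMP and dUTP metabolism and 0.14 for serine and glycine supply, and SLC19A1 is the far point at -4.15.

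The tested genes whose log2 signal followed that of TYMS most closely over the 6 arrays were CD59, TGOLN2, DLX1, KLHL20 and SAMD5, with Pearson r of 0.975 to 0.986. Those most like MTHFD1 were ACTN4, PHF20, MRPL13, KIF13A and USP47, each with r of 0.999. These values describe 6 arrays in 2 groups, and a gene that is lower in all resistant arrays, such as ACTN4 (-1.90) or MRPL13 (-0.88), has a high r with MTHFD1 from that difference.

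How far each result rests on the settings is seen in 6 probe sets. MTHFD1 had a negative log2 fold change under all 18 alternatives (-0.65 to -0.43), and was called in 16 of the 17 that give a test. The MTHFS probe set was negative in all 18 (-0.83 to -0.50) and called in 13 of 17, and that of SHMT1 in all 18 (-0.70 to -0.36) and called in 7. TYMS (0.15 to 0.33), SHMT2 (0.16 to 0.42) and MTHFD2 (0.17 to 0.38) had positive log2 fold changes in all 18, and were called in 6, 4 and 7 of 17. The direction of these single probe sets thus did not turn under any of the 18, while the calls of TYMS, SHMT2 and MTHFD2 depended on the setting. Alternatives of filter, test and replicate block cannot change a log2 fold change, and the raised floor left these 6 as they were. For those alternatives the kept direction carries no information. Averaging the probe sets of a gene, dim ones included, is not among the 18. Read in that way MTHFD1 turned to 0.54 and MTHFD2 to -0.03, while TYMS was at 0.09 and SHMT2 at 0.18. Leaving out sensitive replicate 1 or resistant replicate 2 brought TYMS (0.28 and 0.29) and MTHFD2 (0.34 and 0.34) past the threshold (adjusted p between 0.031 and 0.038).

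**Figure D5:**
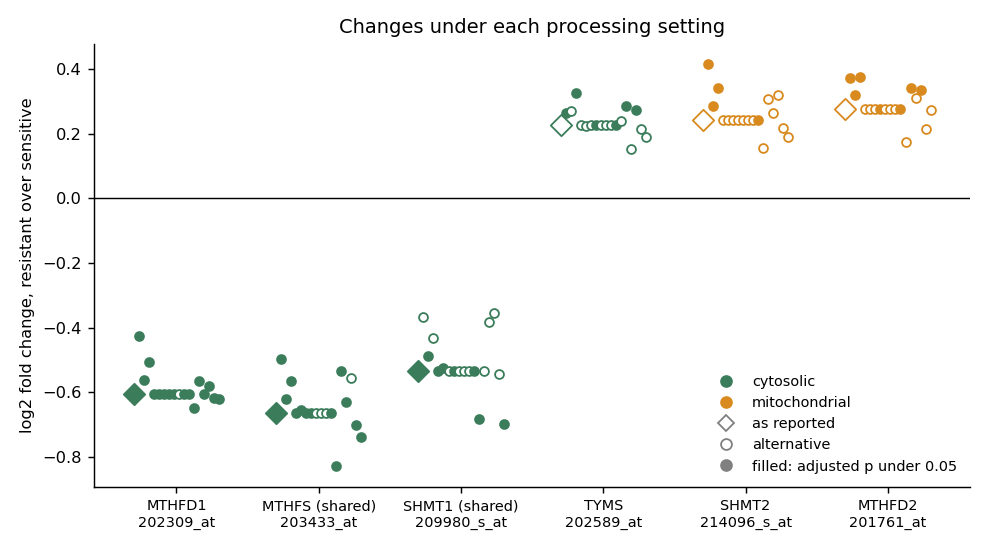
Log2 fold change, resistant over sensitive, of 6 probe sets as reported (diamonds) and under the 17 alternative settings that give a test (circles); green is cytosolic, orange mitochondrial, and filled symbols have an adjusted p under 0.05. All MTHFD1 values lie between -0.65 and -0.43 and all MTHFD2 values between 0.17 and 0.38.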

How the data were processed

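What the authors deposited for the 6 arrays is a linear intensity per probe set, computed by MAS5 (version not given in the sources used here). Scaling in GeneSpring to the array median and to the sensitive samples, then a t-test, are described in the paper's methods. The deposited values have array medians far from 1, from which it was inferred that this scaling is not in them. Each intensity was divided by its array's median over 54675 probe sets, with a floor of 0.01, and log2 values of the 26833 probe sets with a mean of at least 1 (62 controls left out) were fitted in limma 3.58.1 (R 4.3.3; lmFit, then eBayes using a mean-variance trend). The number of arrays limits the precision. No build is named for the values. A platform annotation, updated through Entrez identifiers to RefSeq GRCh38.p14, gave 41091 probe sets 1 gene, 1801 several and 11721 none. Gene lists were read from the brightest probe set naming 1 gene (11835 genes). Paralogue ratios were compared with exact permutation tests (scipy 1.17.1), and the fit was tested on simulated data. Figures were drawn with matplotlib 3.10.9.

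Named were all 9 enzymes, up to 4 called genes of each list with the largest change, genes on the opposite strand of a member, and the 5 genes most like TYMS and MTHFD1. Members and lists were chosen with earlier results of these data known. Alternatives covered scaling, floor, filter, test, replicate block, the mean used for the fold, the probe set of a gene and each array left out. Reading genes from shared probe sets was added after seeing the data. No scan dates or batches were used.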

Additional observations from a re-analysis of the deposited data

How the results depend on the processing

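Of the 16 tested probe sets, 12 kept their sign under every alternative run, though those of filter, test and replicate block cannot change a sign. The 4 others turned sign in at least 1. With each array left out in turn, TYMS 217684_at ran between -0.55 and 0.055 (above 0 without sensitive replicate 3). SHMT2 214437_s_at ran between -0.021 and 0.11 (below 0 without resistant replicate 1, and at -0.015 without sensitive replicate 3). The probe set 231094_s_at of MTHFD1L and its pseudogenes ran between -0.29 and 0.11 (above 0 without resistant replicate 3, at 0.074, and without sensitive replicate 2). It was at 0.033 after quantile normalization and 0.0099 after scaling to the median of probe sets past the filter, and 224954_at of SHMT1 and MIR6778 was at 0.040 after quantile normalization.

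Counts of calls moved with scaling and test. Probe sets called higher, with or without shared ones, were 0 as reported, 5 after quantile normalization, 4 with the median of probe sets past the filter, 2 with no further scaling, 2 with the filter raised to a mean of 2, and 0 to 2 with an array left out (2 without resistant replicate 2 or sensitive replicate 1). Over all tested probe sets 11.6% were higher with no further scaling, 11.5% with the raised filter, 8.71% without resistant replicate 2 and 8.68% without sensitive replicate 1. Genes called higher, with or without shared probe sets, were 0 as reported, 3, 3, 2 and 2 under those settings, and 0 to 2 with an array left out. Of all tested genes 14.8% were higher with no further scaling and 13.5% with the raised filter. Probe sets called lower, shared ones included, were 3 as reported, 1 in the two-group test with equal variances, 0 with unequal variances and 1 in limma without a trend. Of all tested probe sets 7% were lower with equal variances and 12.5% without a trend. With an array left out 1 to 4 of the member probe sets were lower (1 without sensitive replicate 1), where 14.1% to 24.2% of all were. Genes called lower, shared probe sets included, were 2 as reported, 1, 0 and 1 under those tests, and 1 to 3 with an array left out (1 without sensitive replicate 1). Of all tested genes 7.98% were lower with equal variances, 12.9% without a trend and 15.1% to 28.2% with an array left out. From probe sets of 1 gene MTHFD1 was the only one called lower, and none was with unequal variances, where 0.302% of all tested probe sets were called higher and 0.507% lower. With each gene averaged over its probe sets, 0 of the 4 member genes tested were lower, and the share over all genes was not computed.

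The cytosolic median from probe sets of 1 gene was -0.82 as reported, -0.19 with a mean of at least 2 and 0.32 with the mean of all probe sets, which by construction mixes in dim ones. With an array left out it ran between -1.02 and -0.36 (-0.36 without resistant replicate 1), and it counts SHMT1 and FTCD, whose signs the filter favoured. The mitochondrial one was 0.26 as reported, 0.074 with the mean of all probe sets and -0.12 with no filter. With shared probe sets the cytosolic median was -0.61 as reported, -0.43 after quantile normalization and -0.37 with a mean of at least 2, and the mitochondrial one was 0.24 as reported, 0.37 after quantile normalization and -0.030 with no filter. MTHFD2 over MTHFD1 was 0.88 as reported, 0.82 to 0.92 with an array left out and -0.58 with the mean of all probe sets. MTHFD1L over MTHFD1 from probe sets of 1 gene was 0.12 as reported, -0.99 to 1.35 with an array left out (-0.86 without resistant replicate 2, -0.14 without resistant replicate 3 and -0.99 without sensitive replicate 1) and -0.68 with the mean of all probe sets. Where no construction is named, the cause was not tested.

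With the replicate number as a block, 3 probe sets and 3 genes (TYMS, SHMT2 and MTHFD2) were called higher, and the 3 probe sets called lower were still called, where 11.5% of all tested probe sets were higher and 23.9% lower, and 14.4% of genes were higher. Deviations of samples that share a number correlated at 0.141, 0.00718 and 0.0791. Resistant replicates 1 and 3 correlated best with the sensitive replicate of the same number, and resistant replicate 2 with sensitive replicate 3 (0.0330). The labels give only a number, and whether samples with the same number were paired was not tested. Dim probe sets limit what can be said of ALDH1L2, FTCD and, from probe sets of 1 gene, SHMT1 and MTHFD1L. In the two-group test with equal variances, 3.84% of all tested genes were higher and 7.98% lower. In that test 2 S phase genes, 1 gene of dTMP and dUTP metabolism, 1 of folate uptake, 1 other folate enzyme and 1 matrix gene were lower. Higher were 1 other folate enzyme and 1 gene of serine and glycine supply, and of the ATF4 list 1 was higher and 2 lower. When variances could differ, 1 S phase gene was lower and no gene of the other 6 lists was called.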
